A study of Mus musculus with 36 samples.

Results

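The comparison was of forebrain RNA from lh-/- mice with forebrain RNA from lh+/+ mice, 3 arrays in each group. These 6 arrays were chosen by the genotype and tissue in the sample labels, out of 36 arrays in the series. The rest of the series held lh-/- and lh+/+ cerebellum (3 arrays each), and forebrain and cerebellum of 2 further lines, stg and tg, each with -/- and +/+ groups of 3. Each array was hybridised with total RNA of 1 mouse and tissue, and gave 1 signal for each of 45101 Affymetrix probe sets. The symbol lh, written Lh in the labels, was read as lethargic, the mouse mutant of Cacnb4. The labels give no strain, age, sex or allele, and no treatment other than that the mice were killed. They do not state plainly that the arrays of a group come from separate mice, nor which forebrain and cerebellum arrays share a mouse. The p-values of the fits below therefore measure the spread between samples within groups, pooled over all the groups in each fit. The replicate numbers of the forebrain arrays are names only.

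Cacnb4 encodes the beta4 subunit of voltage-gated calcium channels. Beta subunits sit on the cytoplasmic side of the channel, bind the pore-forming alpha1 subunit, help it to reach the membrane and tune how it opens and closes. In lethargic mice a small insertion at a splice site of Cacnb4 removes the normal protein, and the mice have ataxia and absence seizures, which arise in the circuits between thalamus and cortex.

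The forebrain label was borne out by marker levels in the lh samples. Neurod6, a transcription factor of cortical and hippocampal neurons, had signals of 329 to 388 in lh-/- forebrain and 359 to 507 in lh+/+ forebrain, and 25.3 to 56.4 in the 6 lh cerebellum arrays. Pcp2, a Purkinje cell gene, was between 12.7 and 71.4 on the forebrain arrays and between 7000.2 and 9190.5 on the lh cerebellum arrays. Xist and the Y-linked Eif2s3y read 2 males and 1 female in each lh group, and the female was replicate 3 in both. Replicate 3 of both groups also came from the second of 2 runs of sample records, so sex and record run cannot be told apart here, while both are balanced between lh-/- and lh+/+. Among the lh forebrain arrays, the pituitary hormone genes stood out on 1. Gh was 8.45, 174 and 127 in lh-/- forebrain, against 176, 14.7 and 3526 in lh+/+ forebrain. Prl was 17.5, 18.8 and 195 in lh-/- forebrain, against 23.0, 2.30 and 6052 in lh+/+ forebrain. On that array, lh+/+ replicate 3, another hormone gene, Cga, was at 208, and at 9.61 or less on the other 5. Pomc was at 46.9 to 85.5 in lh-/- and 33.4 to 68.6 in lh+/+. High values also occurred in stg+/+ forebrain, with Gh up to 2603, Prl up to 2546, Cga up to 107 and Pomc up to 300. The part of pituitary tissue in the results was not tested. The mean correlation with the other forebrain arrays was 0.937 to 0.948 for the lh-/- arrays and 0.949 to 0.952 for the lh+/+ arrays (two-sided exact permutation p = 0.1, the smallest possible with 3 against 3). The lowest was lh-/- replicate 3. The 3′ minus 5′ control difference of Actb differed by -0.041 on the log2 scale, lh-/- minus lh+/+ (exact p = 0.1), and that of Gapdh by 0.015 (exact p = 0.8).

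Cacnb4 lies on chr2:52428320-52676609 of GRCm38.p6, on the minus strand, and RefSeq lists 3 start sites in the table used here. A window of 250 bases before to 50 bases after each start is 300 bases long. A window near the 5′ end of the gene and the window at the internal start, 117532 bases further along the gene, are shown because the results turn on this gene. The positions of the probes were not used here, so which starts each probe set reads is not known. Capitals mark each CpG pair.
Cacnb4 start near the 5′ end, chr2:52676094-52676393: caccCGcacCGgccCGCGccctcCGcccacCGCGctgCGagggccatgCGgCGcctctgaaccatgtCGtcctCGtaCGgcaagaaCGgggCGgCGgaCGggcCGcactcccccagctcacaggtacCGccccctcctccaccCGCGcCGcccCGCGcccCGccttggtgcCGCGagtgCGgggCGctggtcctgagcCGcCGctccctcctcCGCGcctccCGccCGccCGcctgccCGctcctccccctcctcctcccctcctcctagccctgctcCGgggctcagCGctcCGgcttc
Cacnb4 internal start, chr2:52558562-52558861: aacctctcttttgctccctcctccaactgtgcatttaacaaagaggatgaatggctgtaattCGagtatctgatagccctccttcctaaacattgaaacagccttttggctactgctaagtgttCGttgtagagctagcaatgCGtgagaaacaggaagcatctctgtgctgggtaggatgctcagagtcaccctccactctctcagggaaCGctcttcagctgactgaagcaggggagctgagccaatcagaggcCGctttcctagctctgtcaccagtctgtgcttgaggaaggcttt
The first window holds 40 CpG pairs and is 78.3% G or C, and the internal one holds 5 and is 49.7% G or C. Of 32851 promoter windows of this length in the table, 96.1% have fewer CpG pairs than the first and 38.0% fewer than the internal one, and the median is 7. The motif CCAAT, searched on both strands, occurs once in the internal window and not in the first, and 37.4% of all windows hold it.

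Cacnb4 transcript fell in lh-/- forebrain on all of its 3 probe sets, to between 41.2% and 47.1% of the lh+/+ signal. Probe set 1452089_at had signals of 157, 128 and 108 in lh-/- forebrain, against 301, 311 and 322 in lh+/+ forebrain. Probe set 1428928_at had 382, 334 and 383 in lh-/- forebrain, against 841, 853 and 976 in lh+/+ forebrain. Probe set 1436912_at had 656, 591 and 656 in lh-/- forebrain, against 1216, 1371 and 1456 in lh+/+ forebrain. On each probe set the lowest lh+/+ array lay well above the highest lh-/- array. In a limma fit over the 18 forebrain arrays of the 3 lines, the log2 differences were -1.24 (SE 0.13, adjusted p = 0.000382), -1.27 (SE 0.16, adjusted p = 0.00335) and -1.08 (SE 0.16, adjusted p = 0.0285). The call of 1436912_at was lost when any 1 of the 6 lh arrays was left out (limma adjusted p 0.0521 to 0.195), with no intensity trend (adjusted p = 0.132) and with a block for line and record run (adjusted p = 0.0502). That of 1428928_at was lost without lh+/+ replicate 3 (adjusted p = 0.0515). With the first record run alone, both were lost (adjusted p = 0.345 and 0.0576). The fall itself was of much the same size in every such fit, between -1.02 and -1.15 for 1436912_at.

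**Figure D1:**
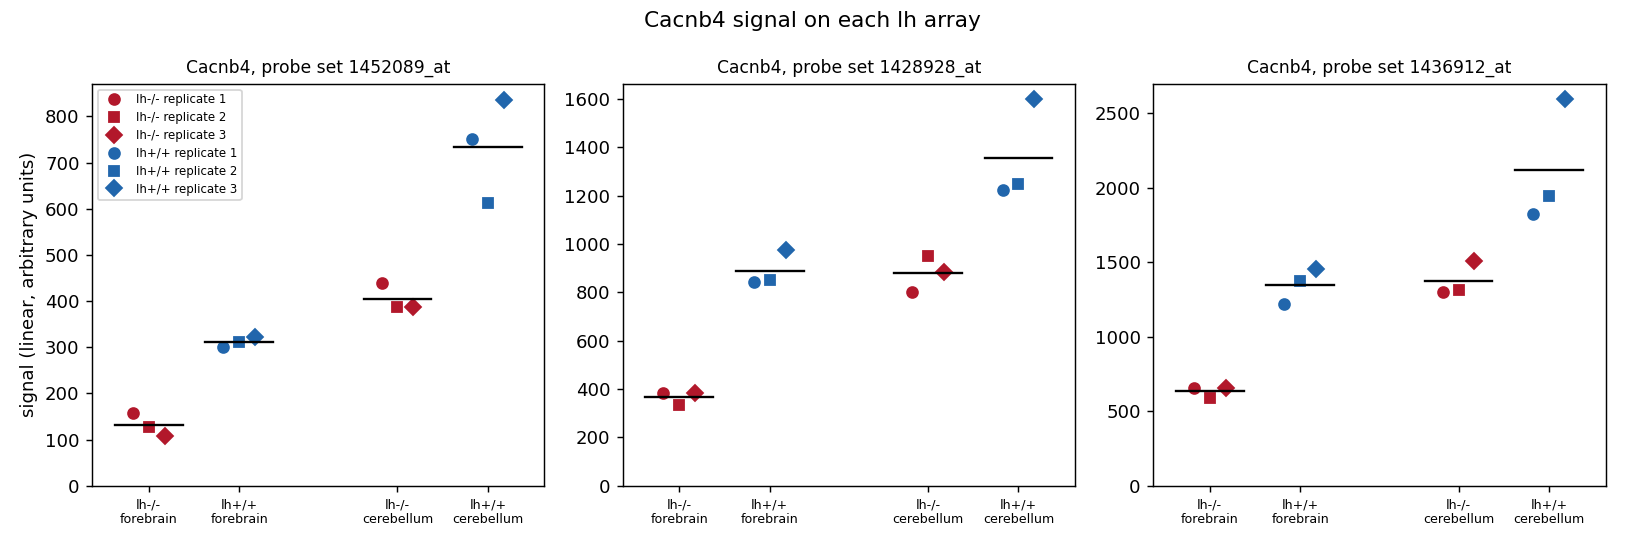
Cacnb4 signal (linear, arbitrary units) on each lh array, by probe set, tissue and genotype; black lines are group means of 3 arrays. In forebrain each lh-/- array lies below every lh+/+ array, with lh-/- means of 131, 366 and 634 against lh+/+ means of 311, 890 and 1348.

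Apart from Cacnb4, few probe sets set the 2 groups apart. Of 27022 probe sets tested, 4 were called at an adjusted p under 0.05, or 0.0148%. Those 4 were the 3 of Cacnb4 and 1 of Samhd1. At an unadjusted p under 0.05 there were 1045 probe sets, or 3.87%, of which 688 were higher and 357 lower in lh-/- forebrain. That balance turned with the scaling: after quantile normalization 433 were higher and 530 lower. Without lh+/+ replicate 3, the lh forebrain array with high Gh and Prl, 1 probe set was called, Cacnb4 1452089_at. Without lh-/- replicate 3 the count was 8, and without any 1 of the other 4 lh arrays it was 2 or 3.

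**Figure D2:**
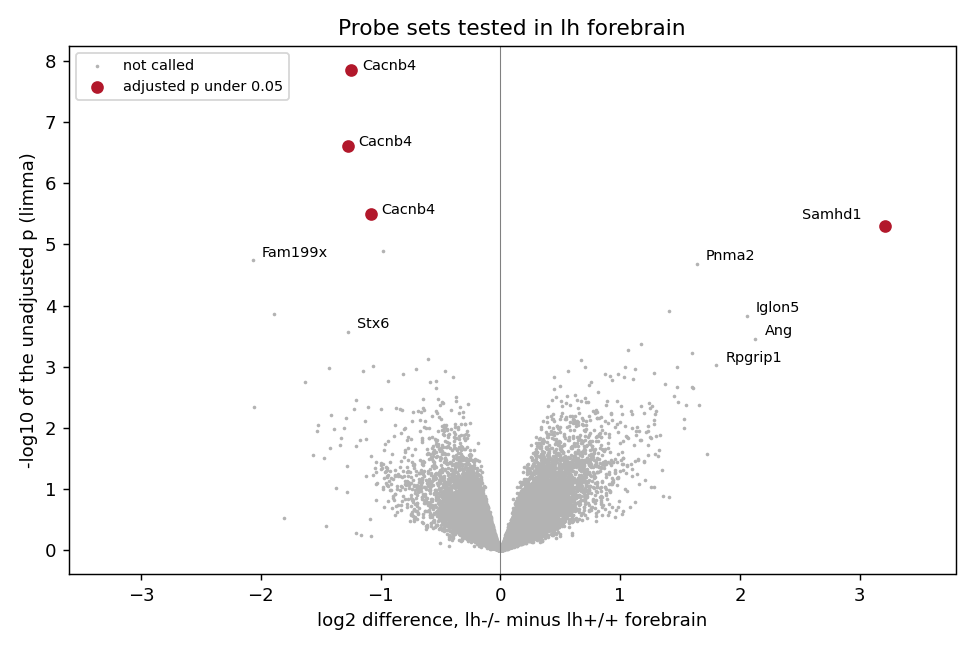
Log2 difference, lh-/- minus lh+/+ forebrain, against -log10 of limma's unadjusted p for each probe set tested. The 3 Cacnb4 probe sets and 1 Samhd1 probe set (red) pass the adjusted threshold; Fam199x, Pnma2 and the other labelled genes do not.

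The other measured subunits of voltage-gated calcium channels were not called. The 39 measured probe sets of the 19 other channel genes lay between -0.41 and 0.83, with none at an unadjusted p under 0.05. Among pore subunits, Cacna1a, the P/Q-type pore, had signals of 164, 179 and 107 in lh-/- forebrain, against 165, 140 and 101 in lh+/+ forebrain, a log2 difference of 0.14 (95% interval -0.36 to 0.64). Cacna1b, the N-type pore, was at 0.28 (95% interval -0.07 to 0.62), Cacna1e, the R-type pore, at -0.02 (-0.31 to 0.26), and Cacna1g, a T-type pore that is strong in thalamus, at 0.21 (-0.19 to 0.61). Among the other beta subunits, Cacnb1 was at 0.16 (-0.21 to 0.54) and Cacnb2 at -0.14 (-0.42 to 0.14). Cacnb3 had no value among the probe sets read here. The auxiliary subunits Cacna2d1, Cacna2d2 and Cacna2d3 were at -0.0075, 0.20 and -0.05. Cacng2, the stargazin subunit that carries AMPA receptors to the synapse, was at -0.0018 on 1 probe set, with signals of 321, 313 and 289 in lh-/- forebrain and 273, 341 and 313 in lh+/+ forebrain.

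Samhd1 encodes an enzyme that breaks down deoxynucleotides and limits viral replication. Its probe set 1420272_at rose in lh-/- forebrain, with signals of 41.6, 63.3 and 78.6, against 3.87, 4.58 and 2.85 in lh+/+ forebrain, which is near the added constant of 2.98. The log2 difference was 3.21 (SE 0.51, limma adjusted p = 0.0336). The group that stood apart from the rest of the series was lh+/+: the 12 forebrain arrays of the other lines ran from 11.2 to 93.0, with a median of 35.5, a range that holds all 3 lh-/- arrays. In cerebellum the same probe set was at 123, 4.01 and 17.4 in lh-/- and 24.9, 33.6 and 27.0 in lh+/+. The 3 further Samhd1 probe sets that were measured had differences of 0.05, 0.23 and -0.16, none of them called. The call was lost with no filter, with a constant of 16, with no intensity trend, with the block for line and record run (adjusted p = 0.0789), with the first record run alone (adjusted p = 0.547), and without any 1 of the 6 lh arrays (adjusted p 0.102 to 0.195).

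The text names the 12 genes with the smallest p in each direction, and beyond Cacnb4 and Samhd1 none of them was called. Fam199x, on the X chromosome, was at 26.7, 11.1 and 55.4 in lh-/- forebrain, against 98.0, 117 and 145 in lh+/+ forebrain. That is a log2 difference of -2.07 (SE 0.36, limma adjusted p = 0.0796), with no overlap. A second probe set of Fam199x was at 18.3, 4.01 and 22.6 in lh-/- forebrain, against 30.8, 38.7 and 50.2 in lh+/+ forebrain, a difference of -1.43, and the third was at -0.14. In this gene the group apart from the rest was lh-/-, since the other 12 forebrain arrays ran from 62.5 to 150. Fam199x was called in cerebellum, where its signals were 24.6, 27.4 and 61.1 in lh-/- and 129, 153 and 194 in lh+/+ (difference -2.08, limma adjusted p = 0.000459). In forebrain it passed after quantile normalization (adjusted p = 0.0367), with array weights, without lh-/- replicate 3 and with the first record run alone. It did not pass in a fit of the lh arrays alone (limma adjusted p = 0.853) or with no intensity trend (adjusted p = 0.268). Nor did it pass without any 1 of the other lh forebrain arrays (adjusted p 0.184 to 0.478).

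Among the genes higher in lh-/- forebrain by p, Pnma2, a paraneoplastic antigen gene, was at 95.8, 110 and 39.0 in lh-/-, against 23.7, 17.3 and 25.7 in lh+/+ (difference 1.64, limma adjusted p = 0.0796). Another Pnma2 probe set was at -0.25. Iglon5, an adhesion molecule gene, was at 54.8, 92.0 and 51.4 in lh-/-, against 5.63, 17.7 and 20.3 in lh+/+ (2.06, adjusted p = 0.396). Rpgrip1, known from the photoreceptor cilium, was at 355, 364 and 62.7 in lh-/-, against 54.1, 48.7 and 65.8 in lh+/+ (1.80, adjusted p = 0.9997). Here replicate 3 of lh-/- lay inside the lh+/+ range while the other 2 lh-/- arrays lay far above it. Ang, a secreted ribonuclease gene, was at 31.2, 50.0 and 5.11 in lh-/-, against 2.43, 2.85 and 2.57 in lh+/+ (2.13, adjusted p = 0.795). All 3 lh+/+ values lie below the 2.98 added before taking logs, and the difference moves with that choice: 2.58 with a constant of 1 and 1.12 with a constant of 16. As in Rpgrip1, replicate 3 of lh-/- was closest to lh+/+. Without that array Pnma2, Ang, Rpgrip1, Fam199x and Creb5 each passed the threshold, and the count of called probe sets was 8. Without any 1 of the other lh forebrain arrays none of these genes passed (limma adjusted p 0.183 or more). The other genes in this set, all with an adjusted p of 0.897 or more, were Hif3a, a hypoxia-inducible factor subunit (1.17), Cbfa2t3, a transcriptional corepressor (0.68), Erdr1 (1.47), Kcp, a BMP modulator (0.71), Dgkh, a diacylglycerol kinase (1.04), Ergic1, of the path between endoplasmic reticulum and Golgi (1.12), and Safb2, a nuclear scaffold attachment factor (0.56).

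Among the genes lower in lh-/- forebrain by p, Me1, the cytosolic malic enzyme that makes NADPH, was at 39.8, 90.5 and 40.5 in lh-/-, against 98.4, 114 and 130 in lh+/+ (-1.06). Stx6, a SNARE of the trans-Golgi network, was at -1.27, Stam, an endosomal sorting adaptor, at -0.94, and Creb5, a CREB family transcription factor, at -1.63. With a constant of 16, Stx6 was at -0.83 and Creb5 at -0.92. Gdap1, a mitochondrial fission gene, was at 1022, 1064 and 945 in lh-/-, against 1262, 1340 and 1391 in lh+/+ (-0.40). Tmem14a was at -0.61, Aasdh at -0.81, Galntl6 at -0.54, D230025D16Rik at -0.59 and Rif1, a gene of replication timing and DNA repair, at -0.70. None of these was called, and limma's adjusted p was 0.669 for Stx6 and 0.9997 for the rest. Of the 24 genes in these 2 sets, Cacnb4 included, 17 had more than 1 measured probe set. In 2 of the 17, Cacnb4 and Fam199x, more than 1 probe set had an unadjusted p under 0.05.

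The position of these genes against the other 2 lines is a description with no test, since a choice by the smallest lh p favours genes in which 1 of the lh groups is extreme. Of the 12 genes higher in lh-/- forebrain, all 3 lh+/+ arrays lay below the range of the other 12 forebrain arrays in 5, Samhd1, Pnma2, Iglon5, Ang and Rpgrip1, and all 3 lh-/- arrays lay above it in 2, Cbfa2t3 and Safb2. In the remaining 5 neither lh group lay wholly outside. Of the 12 genes lower in lh-/- forebrain, all 3 lh-/- arrays lay below the range in 6, among them Cacnb4, Fam199x, Stx6 and Me1. For Me1 the lh+/+ arrays lay below it as well. In the other 6 neither group was wholly outside. Over all 12574 genes, all 3 lh-/- arrays lay above that range in 0.7% and below it in 0.883%, and all 3 lh+/+ arrays above it in 0.366% and below it in 0.604%.

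**Figure D3:**
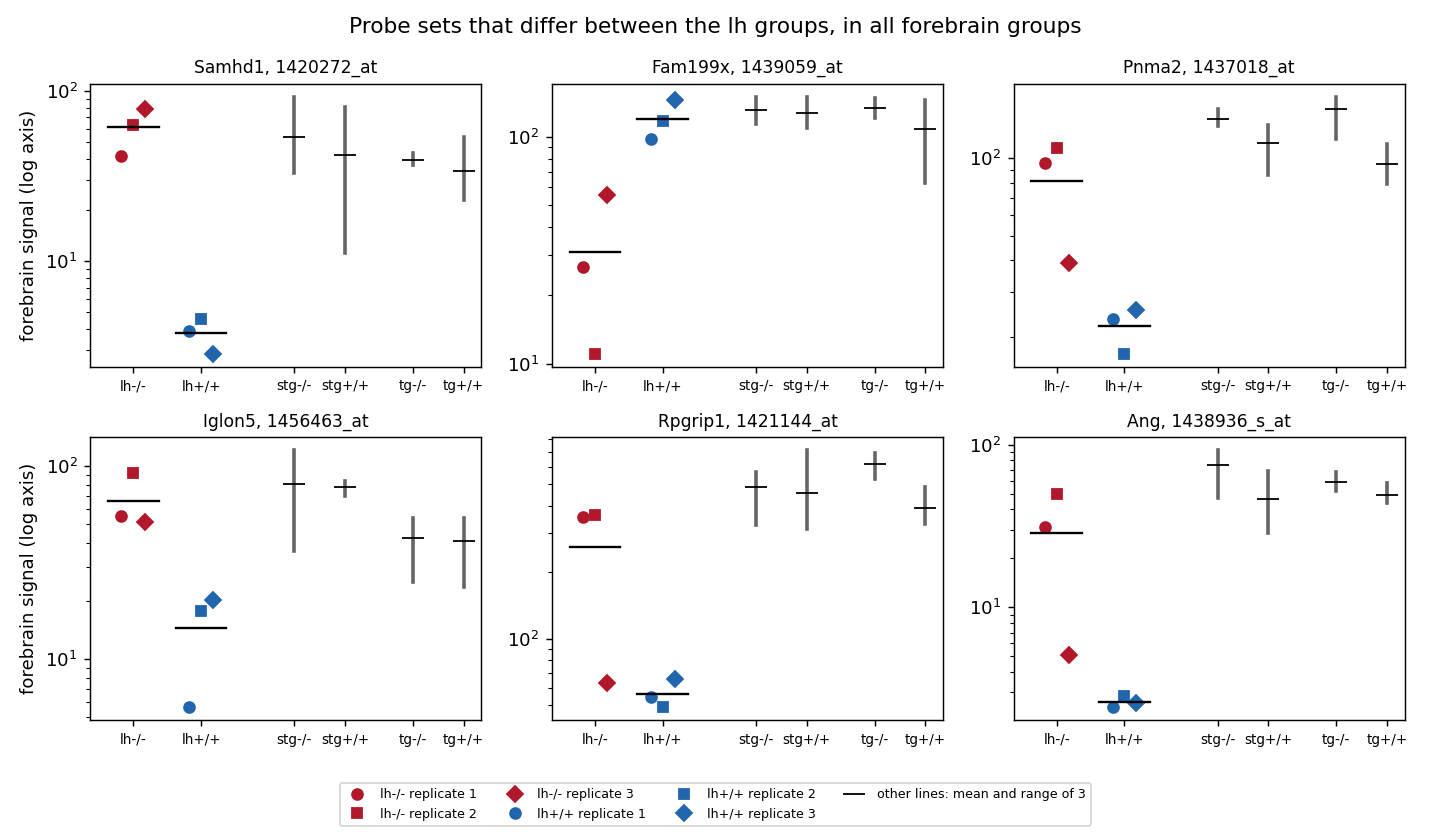
Forebrain signal (log axis) of 6 probe sets in lh-/- and lh+/+ by array, with the mean (line) and range of the 3 arrays of each stg and tg group; black lines in lh are means. For Samhd1, Pnma2, Iglon5, Rpgrip1 and Ang the lh+/+ arrays lie below the arrays of the other lines, and for Fam199x the lh-/- arrays do.

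Genes near Cacnb4 on chromosome 2 were read in a window of 10 Mb to each side. Of 56 genes there, 42 were measured, none was called and 3 were lower at an unadjusted p under 0.05. The 3 were Rif1 (-0.70), Gca, a calcium-binding protein of granulocytes (-0.57, unadjusted p = 0.00638), and Acvr1, a BMP receptor (-0.33, unadjusted p = 0.0471). Among all 12574 genes with 1 probe set each, 1.48% were lower and 2.16% higher at that level, and after quantile normalization 1.94% were lower and 1.58% higher. The median difference in the window was -0.03, with 15 genes above 0 and 27 below, against -0.00051 over all genes, with 6262 above and 6312 below. Rif1 was at 194, 149 and 211 in lh-/- forebrain, against 315, 259 and 328 in lh+/+ forebrain. The 3 further Rif1 probe sets were at 0.33, -0.087 and -0.27, none of them called in forebrain. In lh cerebellum a Rif1 probe set was among those called.

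The gene lists for neuronal excitability held no called gene other than Cacnb4. Of 27 measured sodium, potassium and HCN channel genes, 1 was higher and 3 lower at an unadjusted p under 0.05, against 2.16% and 1.48% of all genes. Without lh+/+ replicate 3 the count was 1 higher, Kcnj6, and 1 lower, Kcnj9. Kcnj6, a GIRK potassium channel subunit, was at 64.4, 83.6 and 83.2 in lh-/- forebrain, against 46.0, 28.0 and 50.7 in lh+/+ forebrain (log2 difference 0.88, limma's unadjusted p = 0.0013). Its partner subunit gene Kcnj9 was at 297, 458 and 393 in lh-/- forebrain, against 553, 564 and 529 in lh+/+ forebrain (-0.54, limma's unadjusted p = 0.0294). The Kv3 channel genes of fast-spiking neurons were lower as well by value, Kcnc1 at -0.33 and Kcnc2 at -0.32. Of the 27 genes, 7 were above 0 and 20 below, with a median of -0.06, against -0.00051 over all genes. None of the 17 GABA receptor, synthesis and transport genes, the 20 glutamate receptor genes or the 25 genes of the release machinery had an unadjusted p under 0.05. Their medians were -0.04, -0.01 and -0.03. Of 27 calcium buffering, release and calcium-dependent enzyme genes, Camkk2, a calmodulin-dependent kinase kinase, was at -0.31 (unadjusted p = 0.0472), and after quantile normalization or without lh+/+ replicate 3 the list had no gene at that level. Of 9 beta subunit partners, Stac2, an adaptor of the calcium channel, was at an unadjusted p under 0.05 (0.30), but not without lh+/+ replicate 3.

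Activity-regulated genes and neuropeptides were read next, as markers of neuronal firing. Of 29 measured activity-regulated genes, 3 were higher and none lower at an unadjusted p under 0.05, against 2.16% and 1.48% of all genes. None was called. Bdnf, the neurotrophin, was at 172, 297 and 201 in lh-/- forebrain, against 133, 166 and 150 in lh+/+ forebrain (0.53). Per1, a clock gene that activity also induces, was at 205, 283 and 172 in lh-/- forebrain, against 148, 168 and 155 in lh+/+ forebrain (0.45). Dusp4, a MAP kinase phosphatase, was at 0.70 with groups that overlap. Fos, the standard immediate early gene, was at 973, 811 and 1012 in lh-/- forebrain, against 910, 1300 and 805 in lh+/+ forebrain (-0.08), and Arc was at -0.27. The list's median was -0.01. Without lh+/+ replicate 3 the count of higher genes was 1, Bdnf. Of 19 neuropeptide genes, Pdyn, the precursor of dynorphins, was at 85.6, 85.3 and 100.3 in lh-/- forebrain, against 63.4, 66.1 and 55.7 in lh+/+ forebrain (0.53, limma's unadjusted p = 0.0185). Without lh+/+ replicate 3 no gene of the list was at an unadjusted p under 0.05.

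Region and cell type markers gave no call. Of 10 hypothalamus markers, 9 were above 0, with a median of 0.18, and Avp, the vasopressin gene, was at 276, 363 and 371 in lh-/- forebrain, against 133, 269 and 242 in lh+/+ forebrain (0.69). After quantile normalization 7 of the 10 were above 0. The summed signal of the 14 hypothalamus markers with a probe set, measured or not, ran from 1917 to 2099 in lh-/- and from 1508 to 1863 in lh+/+. On the 12 forebrain arrays of the other lines it ran from 1527 to 2055. The part of hypothalamus content in the results was not tested. For thalamus, cortex and hippocampus, striatum, and olfactory bulb markers the medians were -0.04, -0.03, -0.04 and -0.03. Of 14 cortex and hippocampus markers, Neurod2 (0.35) was higher and Lamp5 (-0.36) lower at an unadjusted p under 0.05, against 2.16% and 1.48% of all genes. Of 15 oligodendrocyte and myelin genes, 1 was above 0 and 14 below, with a median of -0.10 and none at an unadjusted p under 0.05. Of 8 interferon and antigen presentation genes, 7 were above 0, with a median of 0.35 and none at that level, and Oas1a, an interferon-induced enzyme gene, was at 0.83. Microglia, astrocyte and endothelial markers had medians of 0.02, -0.0013 and -0.00045. Of 11 endothelial and mural markers, Vwf (0.53) was higher at an unadjusted p under 0.05, but not after quantile normalization. In bulk tissue, fewer cells of a type and less RNA per cell cannot be told apart. Over all genes, 5.3% were higher and 5.16% lower in lh-/- forebrain with no overlap between the groups.

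**Figure D4:**
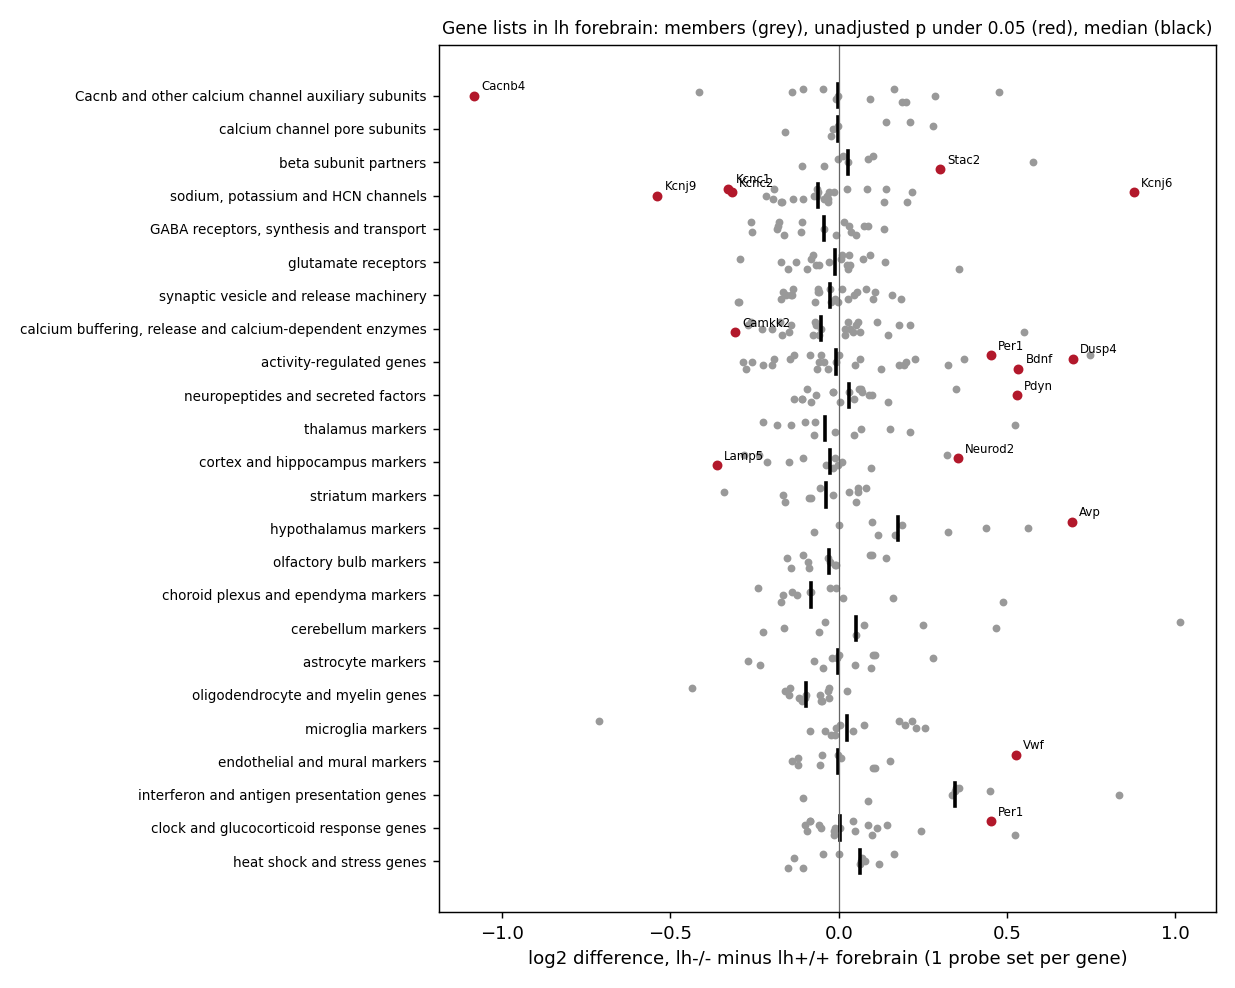
Log2 difference, lh-/- minus lh+/+ forebrain, for the members of each gene list, with 1 probe set per gene; red points have an unadjusted p under 0.05 and black bars are medians. The pituitary, red blood cell and sex-linked lists are not drawn. Cacnb4 has the lowest value of the genes drawn, -1.08, and the medians of the lists drawn lie between -0.10 and 0.35.

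The lh difference was set beside that in lh cerebellum, where 42 probe sets were called, or 0.155% of those tested, 15 higher and 27 lower in lh-/-. Of the 40 measured in forebrain, 27 had the same sign there and 8 had an unadjusted p under 0.05 in forebrain, 7 of them with the same sign, against a background of 3.87%. The 2 tissues may come from the same mice, so these counts are not from independent samples. With Cacnb4 left out, the median absolute log2 difference of these probe sets was 0.125 in forebrain. It was 0.779 in cerebellum, the tissue in which they were called. The 1 called in both tissues was Cacnb4 1452089_at. Cacnb4 1452089_at was at 438, 387 and 388 in lh-/- cerebellum, against 750, 613 and 835 in lh+/+ cerebellum, 44.8% lower, compared with 57.9% lower in forebrain. The difference between tissues for Cacnb4 was -0.40 to -0.66 over its 3 probe sets and did not pass (limma adjusted p from 0.769 to 0.992).

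A set of 3 probe sets, or 0.0111%, had a difference that itself differed between the tissues. Th, tyrosine hydroxylase, which cerebellar Purkinje cells of calcium channel mutants are known to express, was at 165, 143 and 182 in lh-/- forebrain, against 201, 179 and 165 in lh+/+ forebrain (-0.15). In cerebellum it was at 562, 568 and 475 in lh-/-, against 49.1, 57.2 and 37.2 in lh+/+ (3.42). The forebrain minus cerebellum difference was -3.57 (SE 0.27, limma adjusted p = 8.91e-10). Tac1, whose peptides include substance P, differed by -1.78 (SE 0.28, adjusted p = 0.0079) and was at -0.08 in forebrain. Tmem100 differed by -1.68 (SE 0.29, adjusted p = 0.0258), with forebrain signals of 70.1, 72.4 and 50.0 in lh-/-, against 104, 86.4 and 87.3 in lh+/+ (-0.52). Tac1 lost the call in a fit of the lh arrays alone (limma adjusted p = 0.0804) and without lh+/+ replicate 2 (adjusted p = 0.0583). Tmem100 lost it in a fit of the lh arrays alone (adjusted p = 0.327), with no filter (adjusted p = 0.0666), and without lh-/- replicate 3 or any 1 of the 3 lh+/+ arrays (adjusted p 0.0611 to 0.154). The next by p, Ncald, a calcium sensor, did not pass (0.83, adjusted p = 0.0699), nor did Tpd52l1 (-1.07, adjusted p = 0.0922).

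**Figure D5:**
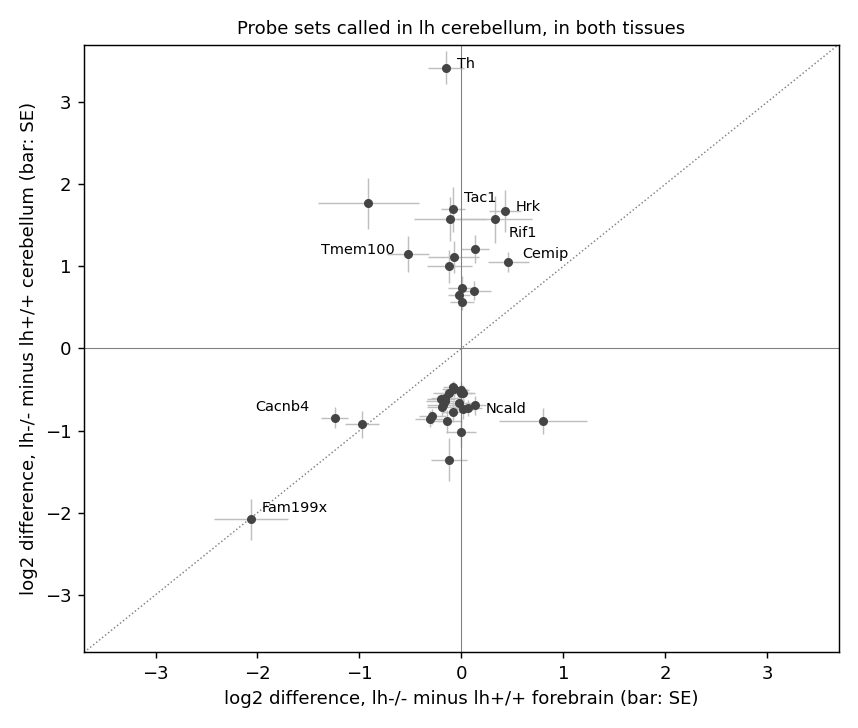
Log2 difference, lh-/- minus lh+/+, in forebrain and in cerebellum for the 40 probe sets called in cerebellum and measured in forebrain, with SE bars; the dotted line marks equal differences. Fam199x lies on the line and Cacnb4 is lower in both tissues, while Th, Tac1 and Tmem100 are far above it.

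The lh difference was also set against the mean of the stg and tg differences in forebrain, in the fit over the 18 forebrain arrays. In that test 3 probe sets passed, or 0.0111%. Cacnb4 1452089_at differed by -1.32 (SE 0.16, limma adjusted p = 0.00119), and its own differences in those lines were 0.08 in stg and 0.06 in tg. The other 2 Cacnb4 probe sets were at -1.16 and -1.17, with an adjusted p of 0.0788. The 2 others that passed were Cacng2, at 2.79 and 1.82, where the difference lay in stg, at -5.26 and -3.61, and the lh differences were 0.03 and -0.0018.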

How the data were processed

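RNA of lh forebrain was read on 6 of 36 Affymetrix arrays. The deposited values were signal intensities on a linear scale, and no label used here states the authors' software. Every array had the same trimmed mean, 150, with 2% of its values cut from either end, so the deposited arrays share a scale. No detection calls were used, and the number of arrays limits the precision.

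From these intensities log2(signal + 2.98) was computed, the constant being the 10th percentile of all values. It understates changes of dim probe sets. Array medians spanned 0.326, under a limit of 0.5, and no quantile step was added. Leaving out 64 AFFX controls, the 27022 probe sets whose mean exceeded the 40th percentile entered the fit. The test was limma's (version 3.58.1, R 4.3.3), with group means, an intensity trend, two-sided moderated tests and Benjamini-Hochberg adjustment, called at 0.05. The lh forebrain comparison used the 18 forebrain arrays, and the tissue difference all 36. The fit was tested on simulated data with known changes.

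Symbols came from the GEO platform annotation: 34958 probe sets had 1 symbol, 932 several and 9211 none, and only those with 1 were named. By Entrez ID, 34754 matched the RefSeq table of GRCm38.p6 and 204 did not. Promoter sequences are from RefSeq (GRCm38.p6). The text names Cacnb4 and the other channel genes, called probe sets, the 12 genes with the smallest p in each direction, up to 4 members per list, and up to 5 genes per difference test. A gene in a list is its brightest probe set. The members and lists were chosen with earlier results of these data known. Alternatives changed the filter, normalization, constant, trend, weights, samples and blocks.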

Additional observations from a re-analysis of the deposited data

Results flagged for a closer look

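Differences between the effects of 2 groups passed the test of the difference itself in 6 probe sets. The lh difference in forebrain minus that in cerebellum was -3.57 for Th, -1.78 for Tac1 and -1.68 for Tmem100. The lh forebrain difference minus the mean of the stg and tg forebrain differences was 2.79 and 1.82 for the 2 Cacng2 probe sets and -1.32 for Cacnb4 1452089_at. For Cacng2 that difference lay in the stg line and not in lh, as given above. All are log2 values.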

How the results depend on the processing

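The count of probe sets called in lh forebrain, 4, was 2 with no intensity trend, 9 with array weights and 2 with a block for line and record run. It ran from 1 to 8 when 1 lh array was left out. The cerebellum count of 42 ran from 16 to 36 when 1 lh cerebellum array was left out. The count for the forebrain minus cerebellum difference, 3, was 13 with array weights and 6 with the block for line and record run, and ran from 1 to 5 with 1 array left out. The count for lh against stg and tg, 3, was 9 with array weights and ran from 3 to 6. With the replicate block, the lh cerebellum count was 52. Same-numbered lh-/- and lh+/+ cerebellum arrays correlated at 0.225, 0.0948 and 0.333, 1 of them under the limit of 0.1. The numbers were therefore not used as pairs. The forebrain labels carry no replicate number. With the first record run alone, chosen after seeing the data, the lh forebrain count was 6. For the named genes and probe sets, 496 of 547 alternative values kept their direction and side of the threshold, 21 passed newly, 30 no longer passed and 0 reversed. Most of the named genes were not called in the main fit and had no call to lose. The 30 losses fell on Samhd1 1420272_at (11), Cacnb4 1436912_at (9), Tmem100 (6), Cacnb4 1428928_at (2) and Tac1 (2). The cause of these shifts was not tested.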

Other observations

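On chromosome 14, Rpgrip1 and Supt16, chosen after their values were seen, split the lh-/- arrays in both tissues. The labels do not say whether the arrays with the same number in the 2 tissues share a mouse. Rpgrip1 was at 355 and 364 on lh-/- forebrain replicates 1 and 2, against 62.7 on lh-/- replicate 3 and 48.7 to 65.8 in lh+/+. In cerebellum Rpgrip1 was at 405 and 419 on lh-/- replicates 1 and 2, against 33.8 on lh-/- replicate 3 and 34.6 to 41.8 in lh+/+. Supt16, a subunit of a histone chaperone, was at 366, 379 and 450 in lh-/- forebrain, against 503 to 524 in lh+/+ forebrain, and at 432, 445 and 632 in lh-/- cerebellum, against 580 to 709 in lh+/+ cerebellum. In both genes lh-/- replicate 3 was nearer to the lh+/+ arrays than the other 2 lh-/- arrays were. A second Supt16 probe set was at 84.8, 83.7 and 128 in lh-/- forebrain, against 136 to 153 in lh+/+ forebrain. Its cerebellum signals were 101, 109 and 173 in lh-/-, against 172 to 212 in lh+/+. Ang, at low signal, was at 31.2, 50.0 and 5.11 in lh-/- forebrain, against 2.43 to 2.85 in lh+/+ forebrain. Its cerebellum signals were 26.7, 26.9 and 3.69 in lh-/-, against 1.18 to 12.8 in lh+/+. Other probe sets of the same chromosome did not all show this split. Pnma2 1437018_at was at 95.8, 110 and 39.0 in lh-/- forebrain, against 17.3 to 25.7 in lh+/+ forebrain. In cerebellum it was low and without the split, at 12.2, 12.1 and 11.9 in lh-/-, against 7.67, 9.21 and 7.65 in lh+/+. Slc39a2, a zinc transporter gene, was at 67.9, 51.4 and 36.9 in lh-/- forebrain, against 2.09, 26.5 and 39.7 in lh+/+ forebrain, and at 71.8, 62.2 and 73.7 in lh-/- cerebellum, against 60.9, 56.0 and 49.6 in lh+/+ cerebellum.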
